A study of Rattus norvegicus with 8 samples.

Results

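Chemokines are small secreted proteins that direct the migration of white blood cells, and this account covers their genes and those of their receptors in the reperfused left ventricle of pregnant rats. The genes were those whose annotated symbol starts with Ccl, Cxcl, Cx3cl, Xcl, Ccr, Cxcr, Cx3cr or Xcr followed by a digit, on a probe set annotated to exactly 1 gene. This gave 50 of the 14497 genes with 1 symbol on the arrays, 33 ligands and 17 receptors, each measured by 1 probe set. Expression was measured with Affymetrix arrays in left ventricles of female rats in late pregnancy, and every heart of both groups had undergone ischemia followed by reperfusion. The placebo group (3 arrays) was reperfused with vehicle. The ILPD group (5 arrays) received 1 bolus of 5 mg/kg of the treatment that the labels call ILPD and the design text ITLD, taken here to be the same and to stand for Intralipid, the lipid emulsion named in the title of the series. The dose and its unit are those of the design text. The strain, the age and the durations of ischemia and reperfusion are not given in the sources used here, hearts without ischemia were not analysed, and whether each array holds a heart of its own is not in the labels. The p-values therefore speak of the spread among these arrays, part of which may be technical.

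Chemokines are sorted into CC, CXC, CX3C and C classes by the spacing of cysteines near their amino terminus. They bind to heparan sulfate on endothelium and act through G protein-coupled receptors on leukocytes, which couple to Gi proteins. After reperfusion of the heart, CXC ligands of Cxcr2 are known to draw neutrophils into the injured muscle, and Ccl2 and its relatives draw monocytes through Ccr2. Whole ventricle was measured, so more cells of a type and more RNA per cell cannot be told apart. Array medians on the log2 scale were 7.08 to 7.14 in placebo and 7.16 to 7.20 in ILPD, so every ILPD array lay above every placebo array, and the correlation of log2 values over all probe sets was 0.991 to 0.995 within a group and 0.989 to 0.993 between groups. Cardiomyocyte markers were bright on every array, with a mean log2 value over 10 genes of 13.66 to 13.70 on placebo arrays and 13.47 to 13.63 on ILPD arrays, which did not overlap. As deposited, all 10 had a negative difference, while 55.0% of the genes with 1 symbol had a positive one. At an unadjusted p under 0.05 in limma 4 were lower, against 9.39%. However, 5 of 10 were positive after quantile normalization and 8 of 10 after cyclic loess. As deposited, 1 passed limma's test, the troponin Tnnc1, which fell by 0.37 (adjusted p = 0.0195; 0.205 after cyclic loess, 0.121 after quantile normalization, 0.0887 without placebo array 2 and 0.0689 without placebo array 3).

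Chemokine genes that changed were all higher in the ILPD hearts. Of the 33 ligands 5 rose and 0 fell, and of the 17 receptors 1 rose and 0 fell, in limma's test at a threshold of 0.05, adjusted by Benjamini-Hochberg across the 28826 probe sets; at an unadjusted p under 0.05, 12 ligands and 6 receptors were higher, against 11.5% of the genes with 1 symbol, and 0 of either were lower, against 9.39%. The ligands were Cxcl2, Ccl6, Ccl3, Ccl2 and Cxcl12, and the receptor was Cx3cr1. Over all genes with 1 symbol the share called higher was 2.29%, and over all probe sets 1.96%, against 15.2% of the ligands and 5.88% of the receptors. The share called lower was 1.17% of the genes with 1 symbol. At the looser threshold of 0.1, 7 ligands (21.2%) and 4 receptors (23.5%) were called higher, against 4.5% of the genes with 1 symbol, so the order of ligands and receptors turned with the threshold. The median difference was 0.12 for ligands and 0.09 for receptors, against 0.02 over all probe sets. The receptor median was 0.037 after cyclic loess and 0.032 after quantile normalization, and the ligand median 0.11 and 0.096. Over all probe sets the median was -0.00094 and -0.013 in these fits. Without the dimmest 40% of probe sets the order turned, with 0.17 for 29 ligands, 0.27 for 11 receptors and 0.016 over all. Differences ran from -0.22 (Ccl21) to 1.26 (Cxcl2) in ligands and from -0.22 (Cxcr4) to 1.21 (Ccr2) in receptors. Ligands and receptors were compared by counts and medians only, since genes of 1 set of arrays are not replicates. The 2 groups of arrays did not overlap, with ILPD higher, for 9 ligands and 4 receptors, or 26% of the 50 genes, against 8.19% of the genes with 1 symbol. None of the 50 was lower without overlap, against 5.83% of the genes with 1 symbol. Overlap was counted on the deposited values only, in which every ILPD array median lay above every placebo one.

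**Figure D1:**
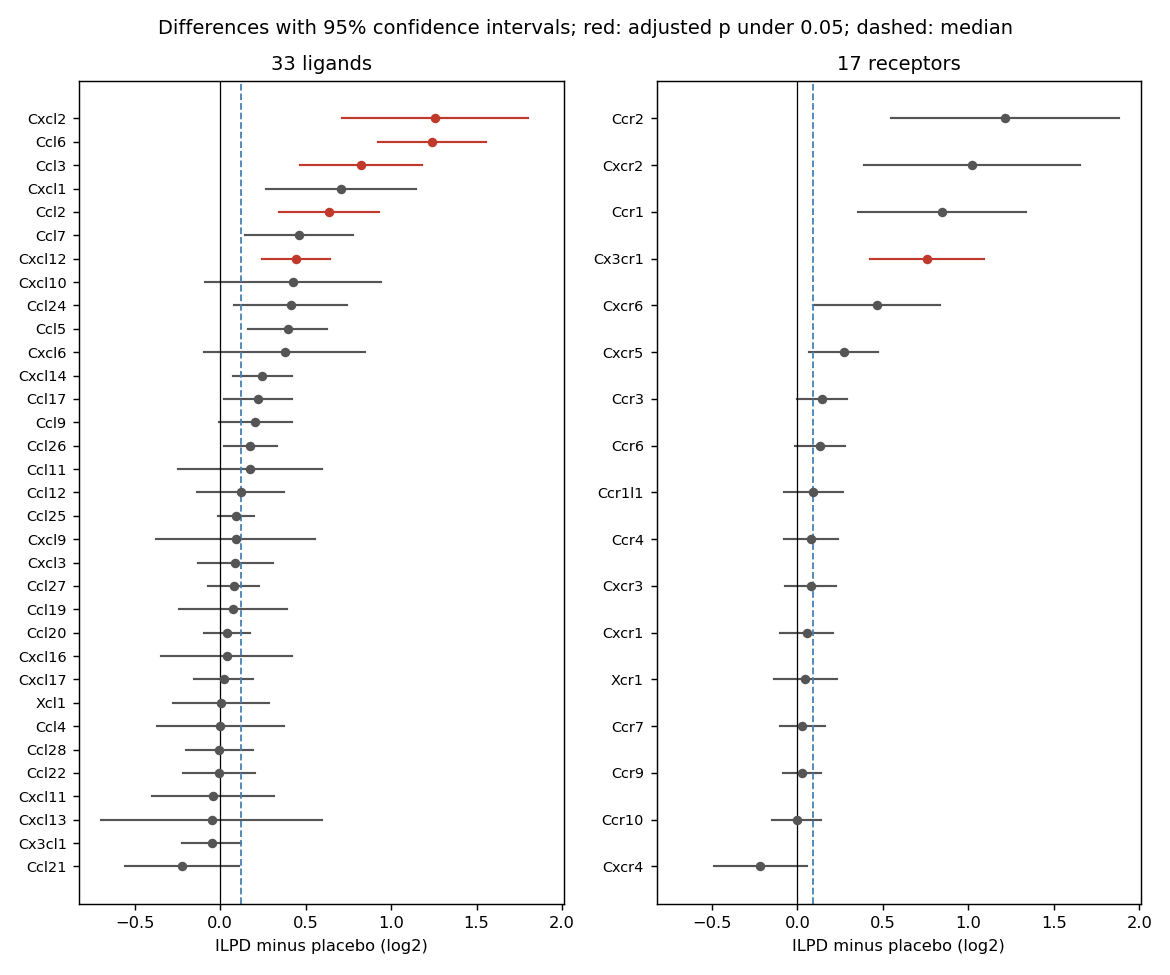
Difference between ILPD and placebo (log2, x axis) for the 33 ligands (left) and 17 receptors (right), with 95% confidence intervals from limma; red marks an adjusted p under 0.05 and the dashed line the median. The upper ends of both panels reach similar sizes, 1.26 for Cxcl2 and 1.21 for Ccr2, while Ccr2, Cxcr2 and Ccr1 did not pass.

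The signs of small differences depended on the normalization. As deposited, 27 of 33 ligands and 15 of 17 receptors had a positive difference, against 55.0% of the genes with 1 symbol. After a further quantile normalization 22 ligands and 10 receptors did, and after cyclic loess 24 and 12. Signs over all 14497 genes with 1 symbol moved as well, from 7973 positive as deposited to 6168 after quantile normalization and 6918 after cyclic loess. All 6 called genes stayed positive under both. Single arrays moved the number of calls. Leaving out placebo array 1 or 2, or ILPD array 2 or 4, left 1 called ligand of 5, and leaving out placebo array 3 left 2. Among receptors, 0 passed when placebo array 2 or 3 or ILPD array 2 was left out, and 2 passed when ILPD array 3 or 5 was. Calls over all 28826 probe sets moved as well. With all arrays 564 were called higher, and 269, 116 and 171 without placebo array 1, 2 and 3. Without ILPD array 2, 3, 4 and 5 the number was 247, 373, 332 and 600. Ccl6 was called in each of these fits.

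Among ligands of neutrophils, Cxcl2 rose and its neighbour Cxcl1 was also higher, short of the threshold. Both are CXC chemokines that attract neutrophils through Cxcr2. Their promoters are shown because the genes lie next to each other and carry, each in duplicate, a sequence of the type bound by NF-kB, the inflammatory transcription factor. The windows run from 250 bases before to 50 bases after the start, in RefSeq's GRCr8 assembly. Capitals mark matches, on either strand, to a kappaB-type motif of GGG, any 2 bases and TTTCC:
Cxcl2 (chr14:17467206-17467505, minus strand): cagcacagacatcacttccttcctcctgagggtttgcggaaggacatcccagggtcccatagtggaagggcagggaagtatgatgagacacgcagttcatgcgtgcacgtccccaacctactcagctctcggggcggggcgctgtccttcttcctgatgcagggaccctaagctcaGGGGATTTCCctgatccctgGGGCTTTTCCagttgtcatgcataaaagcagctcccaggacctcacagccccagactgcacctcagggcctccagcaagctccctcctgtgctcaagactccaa
Cxcl1 (chr14:17479272-17479571, minus strand): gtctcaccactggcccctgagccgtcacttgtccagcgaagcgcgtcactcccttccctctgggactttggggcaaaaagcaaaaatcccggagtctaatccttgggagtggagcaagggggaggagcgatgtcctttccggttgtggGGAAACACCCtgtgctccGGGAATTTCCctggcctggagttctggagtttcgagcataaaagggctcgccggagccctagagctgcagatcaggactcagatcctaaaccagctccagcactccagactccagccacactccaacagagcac
The matches end 65 and 45 bases before the start in Cxcl2, and 93 and 75 bases before it in Cxcl1, with no overlap between them. A match to this motif was present in 5 of 27 ligand promoters (Cxcl1, Cxcl2, Cxcl6, Ccl9 and Ccl20), in 1 of 12 receptor promoters (Ccr3) and in 1.53% of all 33469 promoters of this length. Of the 50 genes, 39 matched the promoter table by gene ID, and those without an entry were Ccl2, Ccl3, Ccl4, Ccl5, Ccl11, Cxcl3, Ccr4, Ccr7, Ccr9, Ccr10 and Cxcr5. Of the 5 ligands with a match to the kappaB-type motif 1, Cxcl2, was called, against 15.2% of all 33 ligands and 2.29% of the genes with 1 symbol. The called ligands Ccl2 and Ccl3 had no promoter entry, and 5 genes are too few to compare these shares. An AP-1 type motif, TGANTCA, was in 4 of 27 ligand promoters (14.8%), 3 of 12 receptor promoters (25%) and 7.33% of all. An interferon response type motif of TTTC, any 2 bases and TTTC was in 2 ligand promoters, 0 receptor promoters and 3.92% of all; both motifs were searched on both strands. A match is a description of the letters and not a measurement of binding.

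Cxcl2 (probe set 10775896) had log2 values of 7.64, 7.98 and 8.44 on placebo arrays 1 to 3 and 9.32, 9.77, 9.21, 9.48 and 8.61 on ILPD arrays 1 to 5. Every ILPD array was above every placebo array, with the lowest ILPD array, 5, only slightly above the highest placebo array, 3. The gene rose by 1.26 on the log2 scale (SE 0.24, 95% confidence interval 0.72 to 1.80, adjusted p = 0.0291 by limma), a 2.39-fold increase. The mean was 8.02 ± 0.40 in placebo (SD, n = 3) and 9.28 ± 0.43 in ILPD hearts (SD, n = 5). The call was lost without placebo array 1 (adjusted p = 0.101) or 2 (0.105) and when ILPD array 2 (0.0541), 3 (0.0511) or 4 (0.068) was left out.

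Cxcl1 had log2 values of 8.81, 9.25 and 9.73 on placebo arrays 1 to 3 and 9.90, 10.18, 9.88, 10.27 and 9.64 on ILPD arrays 1 to 5. It was lowest on placebo array 1 and highest on ILPD array 4, and its placebo array 3 reached into the ILPD range. The difference was 0.71 (SE 0.20, limma adjusted p = 0.0899), and it did not pass in any of the 14 alternative fits (lowest adjusted p 0.0512). Placebo arrays stood in the same order, 1 below 2 below 3, for Cxcl1 and Cxcl2. Cxcl6, which RefSeq also lists as Cxcl5, differed by 0.38 (adjusted p = 0.387), with ILPD arrays 1 and 2 at 7.82 and 7.55 and ILPD array 5 at 6.77, below the lowest placebo value of 6.78. Cxcl3 differed by 0.09 (95% confidence interval -0.13 to 0.31, adjusted p = 0.698).

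Of their receptors, Cxcr2, the main chemokine receptor of neutrophils, had log2 values of 8.77, 7.77 and 8.05 on placebo arrays 1 to 3 and 9.67, 9.45, 8.52, 9.52 and 8.93 on ILPD arrays 1 to 5. The groups overlapped, because placebo array 1 was above ILPD array 3. The difference was 1.02 (SE 0.28, 95% confidence interval 0.39 to 1.65, limma adjusted p = 0.0898), and it passed without ILPD array 3 (adjusted p = 0.0447). Cxcr1, next to Cxcr2 on chromosome 9, differed by 0.05 (95% confidence interval -0.10 to 0.21) and changed sign after quantile normalization and cyclic loess. Of 15 neutrophil markers, 14 had a positive difference (13 after quantile normalization or cyclic loess), against 55.0% of the genes with 1 symbol. Of these 1, the gelatinase Mmp9 (0.58, adjusted p = 0.0466, groups overlapping), passed, or 6.67% of the list against 2.29%. The call of Mmp9 was lost in 12 of 14 alternative fits, among them those without any 1 array other than ILPD array 3 (adjusted p from 0.0626 to 0.162). The mean log2 value of the list was 7.06 to 7.43 on placebo arrays and 7.37 to 7.96 on ILPD arrays. Placebo array 1 had the highest placebo value and ILPD array 3 the lowest ILPD value in that list, as they did for Cxcr2, and the part of neutrophil number in the Cxcr2 difference was not tested.

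**Figure D2:**
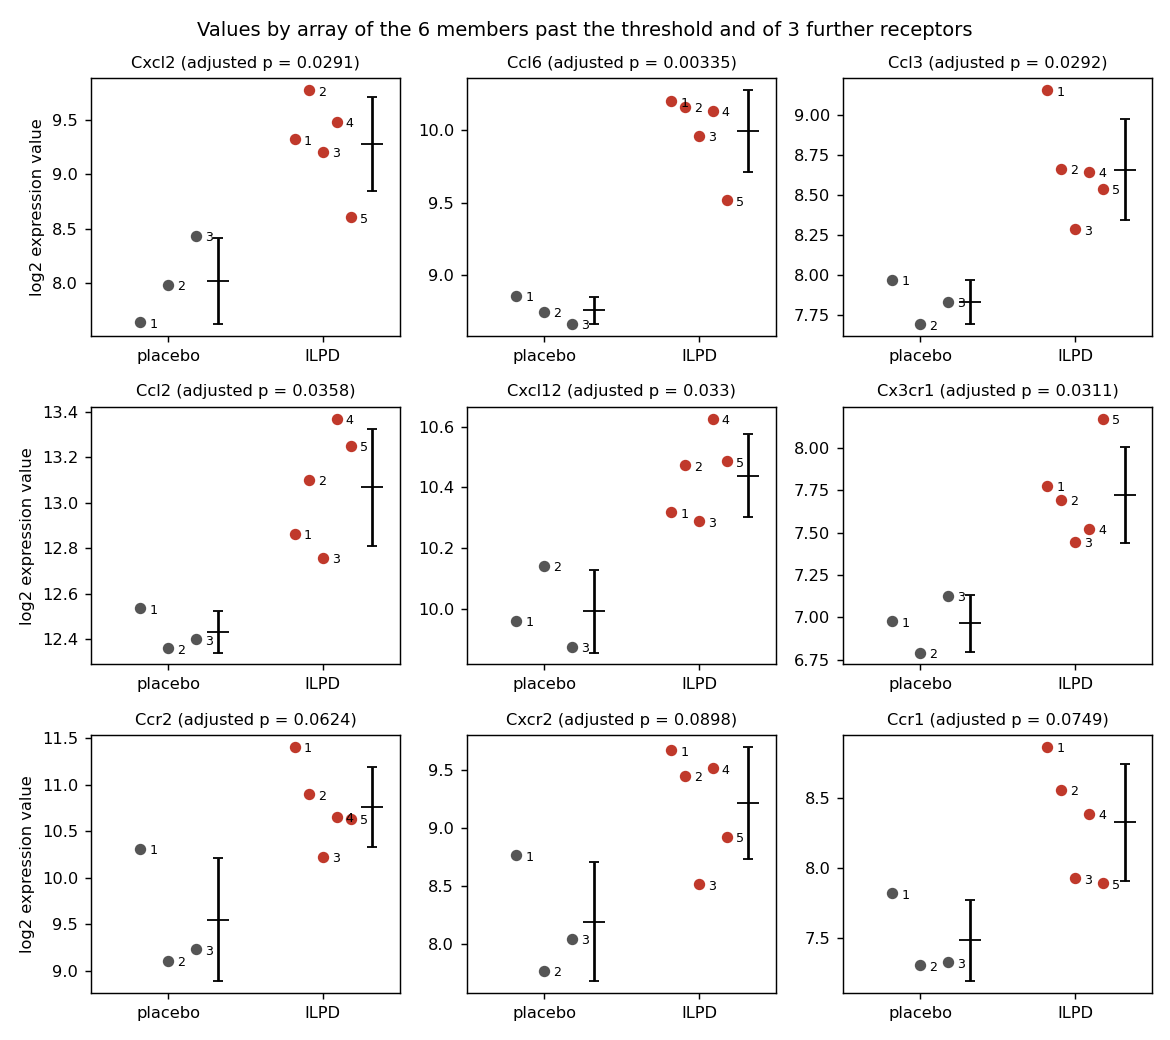
Log2 expression value of each array (y axis; points numbered by replicate) in placebo (grey, n = 3) and ILPD (red, n = 5) for the 6 called genes and for Ccr2, Cxcr2 and Ccr1, with the mean and SD as black bars. The groups of the 6 called genes do not overlap, whereas placebo array 1 lies above ILPD array 3 for Ccr2 and Cxcr2.

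Among ligands that attract monocytes, Ccl2 rose. Ccl2 (probe set 10736697), the principal ligand of Ccr2, had log2 values of 12.54, 12.36 and 12.40 on placebo arrays 1 to 3 and 12.86, 13.10, 12.76, 13.37 and 13.25 on ILPD arrays 1 to 5. The placebo arrays lay close together and all below the ILPD arrays, of which 4 and 5 were highest. The gene rose by 0.64 (SE 0.13, 95% confidence interval 0.34 to 0.93, adjusted p = 0.0358 by limma), a 1.55-fold increase. The mean was 12.43 ± 0.09 in placebo (SD, n = 3) and 13.07 ± 0.26 in ILPD hearts (SD, n = 5). The call was lost without placebo array 1 (adjusted p = 0.0757), 2 (0.127) or 3 (0.115), and without ILPD array 2 (0.0792), 4 (0.0553) or 5 (0.0506).

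Ccl7, its neighbour on chromosome 10 and also a Ccr2 ligand, had log2 values of 8.74, 8.68 and 8.54 on placebo arrays 1 to 3 and 9.46, 9.34, 9.04, 9.01 and 8.75 on ILPD arrays 1 to 5. The groups did not overlap, and ILPD array 5 lay closest to the placebo arrays. The difference of 0.46 (SE 0.14) did not pass (limma adjusted p = 0.118), but did without ILPD array 5 (0.0408). Ccl12, a rodent ligand of Ccr2 in the same row of genes, differed by 0.12 (95% confidence interval -0.13 to 0.38, adjusted p = 0.634).

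Ccr2, the receptor of inflammatory monocytes, had the largest difference of any receptor. Its log2 values were 10.31, 9.11 and 9.23 on placebo arrays 1 to 3 and 11.41, 10.90, 10.23, 10.65 and 10.64 on ILPD arrays 1 to 5. Placebo array 1 stood more than 1 log2 unit above the other 2 placebo arrays and just above ILPD array 3, so the groups overlapped. The difference was 1.21 (SE 0.30, 95% confidence interval 0.55 to 1.88, limma adjusted p = 0.0624). Without placebo array 1 it was 1.60 and passed (adjusted p = 0.0258), and it also passed when the dimmest 40% of probe sets were left out. Of 17 monocyte and macrophage markers 14 had a positive difference, against 55.0% of the genes with 1 symbol. In limma's test 0 passed, against 2.29% called higher, and 4 were higher at an unadjusted p under 0.05, against 11.5%. The 2 largest were Lyz2, a lysozyme of myeloid cells (0.65, adjusted p = 0.148), and Cybb, a subunit of the phagocyte oxidase (0.51, adjusted p = 0.104). The list's mean log2 value was 8.93 to 9.23 on placebo arrays and 9.16 to 9.48 on ILPD arrays, again with placebo array 1 highest in its group and ILPD array 3 lowest in its own. The part of monocyte number in these differences was not tested.

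Ccl6 and Ccl3, 2 ligands of the myeloid receptor Ccr1, rose, and Ccl6 had the firmest call of all 50 genes. The promoter of Ccl6, which is found in rodents and is made by myeloid cells, is given because of that call, in GRCr8 with the match to TATAAA (searched on both strands) in capitals:
Ccl6 (chr10:68883317-68883616, minus strand): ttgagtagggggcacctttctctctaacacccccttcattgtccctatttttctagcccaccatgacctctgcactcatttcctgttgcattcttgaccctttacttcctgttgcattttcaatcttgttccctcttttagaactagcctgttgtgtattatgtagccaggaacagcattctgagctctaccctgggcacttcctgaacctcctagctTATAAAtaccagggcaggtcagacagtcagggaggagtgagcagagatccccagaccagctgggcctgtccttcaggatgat
The match lies 32 to 27 bases before the start. TATAAA was present in 9 of 27 ligand promoters, 2 of 12 receptor promoters and 14.2% of all promoters of this length.

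Ccl6 (probe set 10745670) had log2 values of 8.85, 8.74 and 8.66 on placebo arrays 1 to 3 and 10.20, 10.16, 9.96, 10.13 and 9.52 on ILPD arrays 1 to 5. The 2 groups were far apart, with ILPD array 5 the lowest of its group. The gene rose by 1.24 (SE 0.14, 95% confidence interval 0.93 to 1.56, adjusted p = 0.00335 by limma), a 2.36-fold increase. The mean was 8.75 ± 0.10 in placebo (SD, n = 3) and 9.996 ± 0.28 in ILPD hearts (SD, n = 5). It passed in all 14 alternative fits, with an adjusted p between 0.00034 without ILPD array 5 and 0.024 without placebo array 3.

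Ccl3, a macrophage inflammatory protein (probe set 10745677), had log2 values of 7.97, 7.69 and 7.83 on placebo arrays 1 to 3 and 9.16, 8.66, 8.29, 8.64 and 8.54 on ILPD arrays 1 to 5. ILPD array 1 was highest, and all ILPD arrays were above all placebo arrays. The gene rose by 0.83 (SE 0.16, 95% confidence interval 0.47 to 1.18, adjusted p = 0.0292 by limma), a 1.77-fold increase. The mean was 7.83 ± 0.14 in placebo (SD, n = 3) and 8.66 ± 0.32 in ILPD hearts (SD, n = 5). The call was lost without placebo array 1 (adjusted p = 0.0626), 2 (0.116) or 3 (0.1), and without ILPD array 2 (0.0653) or 4 (0.0638).

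Ccl4, the gene next to Ccl3 and a close relative of it, differed by 0.00 (95% confidence interval -0.37 to 0.37, limma adjusted p = 0.997), with log2 values of 8.32, 7.96 and 8.11 on placebo arrays 1 to 3 and 8.45, 7.94, 7.67, 8.37 and 8.24 on ILPD arrays 1 to 5. Its groups overlapped fully. Ccl5, which attracts T cells and monocytes, differed by 0.40 (limma adjusted p = 0.0753, and 0.0419 after cyclic loess). Its groups did not overlap, but placebo array 1 (9.181) lay only just below ILPD array 4 (9.183). Ccl9, another rodent ligand of Ccr1, differed by 0.21 (limma adjusted p = 0.293). Ccr1, the receptor of monocytes and neutrophils, had log2 values of 7.82, 7.30 and 7.32 on placebo arrays 1 to 3 and 8.87, 8.56, 7.93, 8.39 and 7.89 on ILPD arrays 1 to 5. Its groups did not overlap, though placebo array 1 reached nearly to ILPD arrays 3 and 5. The difference of 0.85 (SE 0.22, 95% confidence interval 0.35 to 1.34) did not pass (adjusted p = 0.0749), but did without ILPD array 5 (0.0449). Ccr1l1, a gene annotated as similar to Ccr1, differed by 0.09 (95% confidence interval -0.08 to 0.26).

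**Figure D3:**
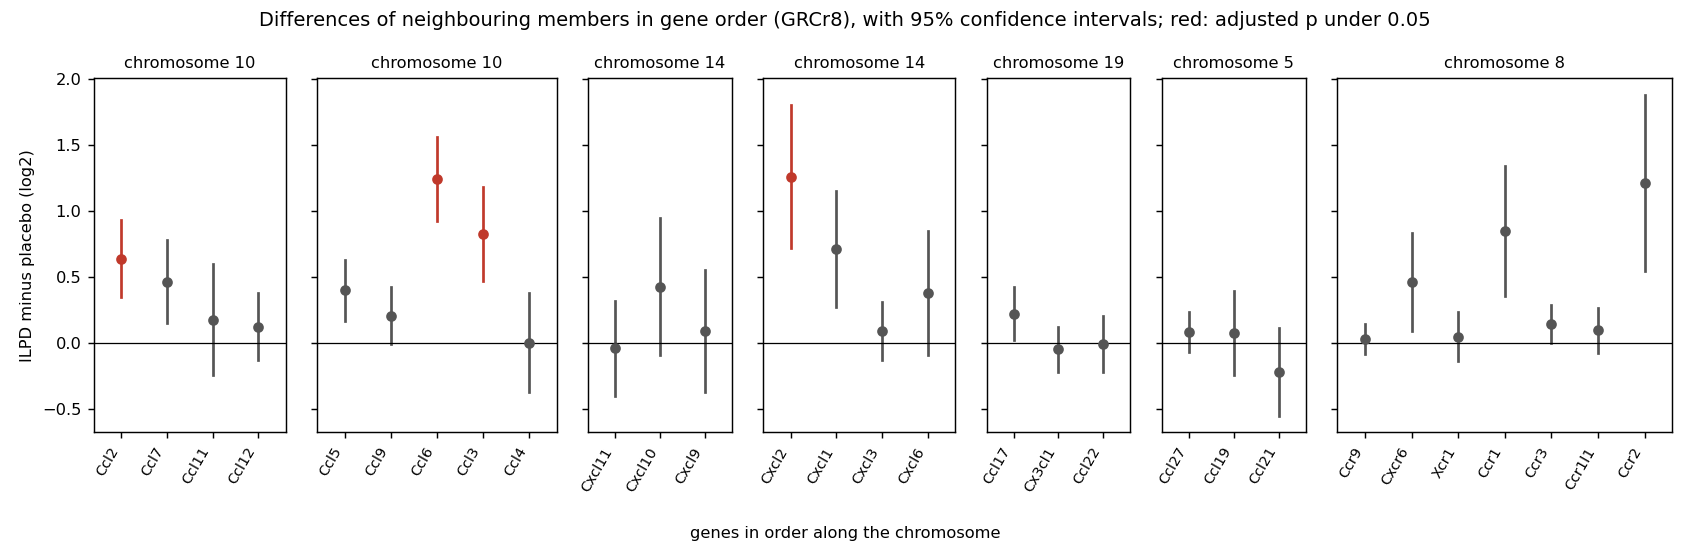
Difference between ILPD and placebo (log2, y axis) with 95% confidence intervals for members that neighbour each other on rat chromosomes, in gene order of GRCr8; red marks an adjusted p under 0.05. Within a row of neighbours the values differ, as for Ccl6 (1.24), Ccl3 (0.83) and Ccl4 (0.00) on chromosome 10.

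Many of these genes lie in rows on the rat chromosomes, and the difference did not run evenly along a row. With at most 10 other protein-coding genes between them in GRCr8, 29 of the 50 fell into 7 rows of at least 3 genes. On chromosome 10 the row Ccl5, Ccl9, Ccl6, Ccl3, Ccl4 ran from 0.00 to 1.24, and the row Ccl2, Ccl7, Ccl11, Ccl12 from 0.12 to 0.64. On chromosome 14 the row Cxcl2, Cxcl1, Cxcl3, Cxcl6 ran from 0.09 to 1.26. The receptor row on chromosome 8 (Ccr9, Cxcr6, Xcr1, Ccr1, Ccr3, Ccr1l1, Ccr2) ran from 0.03 to 1.21, with the 2 ends of that range at opposite ends of the row. Some genes at the low end of a row were dim. Ranked by mean value among all probe sets, Ccr9 stood at 14.2%, Cxcl3 at 31.5% and Ccl12 at 41.7%, but Ccl4 at 67.5%. Part of the unevenness may therefore come from dim probe sets, which was not tested. Differences between neighbours were not tested either.

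In the fractalkine pair the receptor rose and the ligand did not pass. Cx3cr1, found on patrolling monocytes and resident macrophages (probe set 10920981), had log2 values of 6.98, 6.79 and 7.13 on placebo arrays 1 to 3 and 7.78, 7.69, 7.45, 7.52 and 8.17 on ILPD arrays 1 to 5. The groups did not overlap, and ILPD array 5 was highest, unlike for Ccr2, Cxcr2 and Ccr1, where ILPD array 1 was. The gene rose by 0.76 (SE 0.15, 95% confidence interval 0.42 to 1.09, adjusted p = 0.0311 by limma), a 1.69-fold increase. The mean was 6.97 ± 0.17 in placebo (SD, n = 3) and 7.72 ± 0.28 in ILPD hearts (SD, n = 5). The call was lost without placebo array 1 (adjusted p = 0.091), 2 (0.123) or 3 (0.072), without ILPD array 2 (0.0672) and after quantile normalization (0.0621). Cx3cl1, the membrane-bound ligand on endothelium, differed by -0.05 (95% confidence interval -0.22 to 0.12, adjusted p = 0.795).

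Cxcl12 rose, while neither Cxcr4, its signalling receptor, nor Ackr3, its scavenging receptor, passed. Ackr3 nevertheless differed by 0.63 without overlap of the groups, which was more than Cxcl12 itself. Cxcl12 (probe set 10858165), a constitutive chemokine of stromal and endothelial cells, had log2 values of 9.96, 10.14 and 9.88 on placebo arrays 1 to 3 and 10.32, 10.47, 10.29, 10.63 and 10.49 on ILPD arrays 1 to 5. The groups did not overlap, and the spread was alike in both. The gene rose by 0.45 (SE 0.09, 95% confidence interval 0.25 to 0.65, adjusted p = 0.033 by limma), a 1.36-fold increase. The mean was 9.99 ± 0.14 in placebo (SD, n = 3) and 10.44 ± 0.14 in ILPD hearts (SD, n = 5). The call was lost without placebo array 1 (adjusted p = 0.105), 2 (0.0571) or 3 (0.118), without ILPD array 2 (0.0762) or 4 (0.0574) and after quantile normalization (0.0507). Cxcr4 had log2 values of 8.07, 7.70 and 7.71 on placebo arrays 1 to 3 and 7.43, 7.56, 7.45, 7.89 and 7.72 on ILPD arrays 1 to 5 and a difference of -0.22 (95% confidence interval -0.49 to 0.06, adjusted p = 0.392), with overlapping groups. The mean log2 value of 8 endothelial markers was 10.19 to 10.29 on placebo arrays and 10.34 to 10.51 on ILPD arrays. A positive difference was found in 7 of 8, against 55.0% of the genes with 1 symbol, and 1 passed, or 12.5% of the list against 2.29%. That gene was Egfl7, a secreted endothelial factor (0.60, adjusted p = 0.0282 by limma). Its call was lost without placebo array 1 (adjusted p = 0.0999), 2 (0.0539) or 3 (0.104), without ILPD array 2 (0.0642) or 3 (0.0551) and after quantile normalization (0.062). The part of endothelial RNA in the Cxcl12 difference was not tested. Of 7 fibroblast markers 2 were positive, against 55.0% of the genes with 1 symbol, and 0 passed. At an unadjusted p under 0.05 in limma 0 were higher and 1 was lower, against 11.5% and 9.39%.

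The ligands of T cells that interferon induces did not pass. Cxcl10, a ligand of Cxcr3, differed by 0.43 (95% confidence interval -0.09 to 0.94, limma adjusted p = 0.375), Cxcl9 by 0.09 and Cxcl11 by -0.04, with overlapping groups for all 3. Their placebo arrays were widely spread for Cxcl10 (9.22 ± 0.43, SD, n = 3) and Cxcl9 (9.02 ± 0.48), which limits what these arrays could show. Cxcr3 differed by 0.08 (95% confidence interval -0.07 to 0.23). Cxcr6, a receptor of T and NK cells, differed by 0.46 without overlap (adjusted p = 0.176), with placebo array 2 at 6.61, well below the other placebo arrays, while its ligand Cxcl16 differed by 0.04. Of 13 T and NK cell markers 12 were positive (10 after quantile normalization or cyclic loess), against 55.0% of the genes with 1 symbol. The NK receptor Klrd1 passed (0.52, adjusted p = 0.0304 by limma), or 7.69% of the list against 2.29%. Its call was lost without placebo array 1 (0.102), 2 (0.103) or 3 (0.0868), after cyclic loess (0.0695) and after quantile normalization (0.075). The list's mean was 7.20 to 7.33 on placebo and 7.34 to 7.42 on ILPD arrays. Of 6 mast cell markers 1 was positive, against 55.0% of the genes with 1 symbol, and 0 passed. Among them 1 was lower without overlap, against 5.83%, and 1 was lower at an unadjusted p under 0.05 in limma, against 9.39%. Of 6 B cell markers listed 3 were measured, of which 3 were positive and 0 passed. Xcl1 and its receptor Xcr1 differed by 0.01 and 0.05.

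None of the remaining genes passed. Ccl24, an eotaxin that attracts eosinophils through Ccr3, differed by 0.41 (limma adjusted p = 0.174), with ILPD arrays 1, 2 and 4 between 8.13 and 8.22 and ILPD arrays 3 and 5 both at 7.64, within the placebo range. Cxcl14, a constitutive chemokine, differed by 0.25 (adjusted p = 0.125), and Cxcr5, the follicle homing receptor of B cells, by 0.27 (adjusted p = 0.152). The ligand of Cxcr5, Cxcl13, was the most variable of the 50 genes in placebo (8.50 ± 0.70, SD, n = 3), with placebo array 1 at 7.69, and differed by -0.05 (95% confidence interval -0.69 to 0.60). Ccl21, which guides cells to lymph nodes through Ccr7, had the lowest difference of the ligands, -0.22 (adjusted p = 0.482). The other 10 ligands and 6 receptors (Ccl11, Ccl17, Ccl19, Ccl20, Ccl22, Ccl25, Ccl26, Ccl27, Ccl28, Cxcl17 and the skin, gut and lymphoid homing receptors among them) lay between -0.0086 and 0.22. Ccl25, Ccl26 and Ccr3 were higher without overlap at differences of 0.09, 0.18 and 0.14. All 3 were dim, at 19.9%, 36.5% and 10.2% when probe sets are ranked by mean value.

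Ligands and receptors of a pair were also compared within each array, in 30 known pairs, with exact permutation tests over the 8 arrays that were added after the values had been seen. The ligand had the more positive difference in 12 pairs and the receptor in 18. The two-sided p was the smaller one-sided p doubled. With that rule the smallest p that the 56 splits can give is 0.0357, which 3 pairs reached. Relative to its receptor, Cxcl12 was higher by 0.66 than in placebo (ligand 0.45, Cxcr4 -0.22), while the difference of Cx3cl1 minus that of Cx3cr1 was -0.81 and that of Ccl12 minus that of Ccr2 was -1.09. After Benjamini-Hochberg adjustment over the 30 pairs none passed (lowest adjusted p 0.357 in the exact permutation test). With the doubled p, at least 22 pairs would have had to reach the smallest p for any to pass. The adjusted test could therefore hardly have made a call and says little about these pairs. Ccl3 and Ccr1 differed almost equally (0.83 and 0.85; exact permutation p = 0.821).

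**Figure D4:**
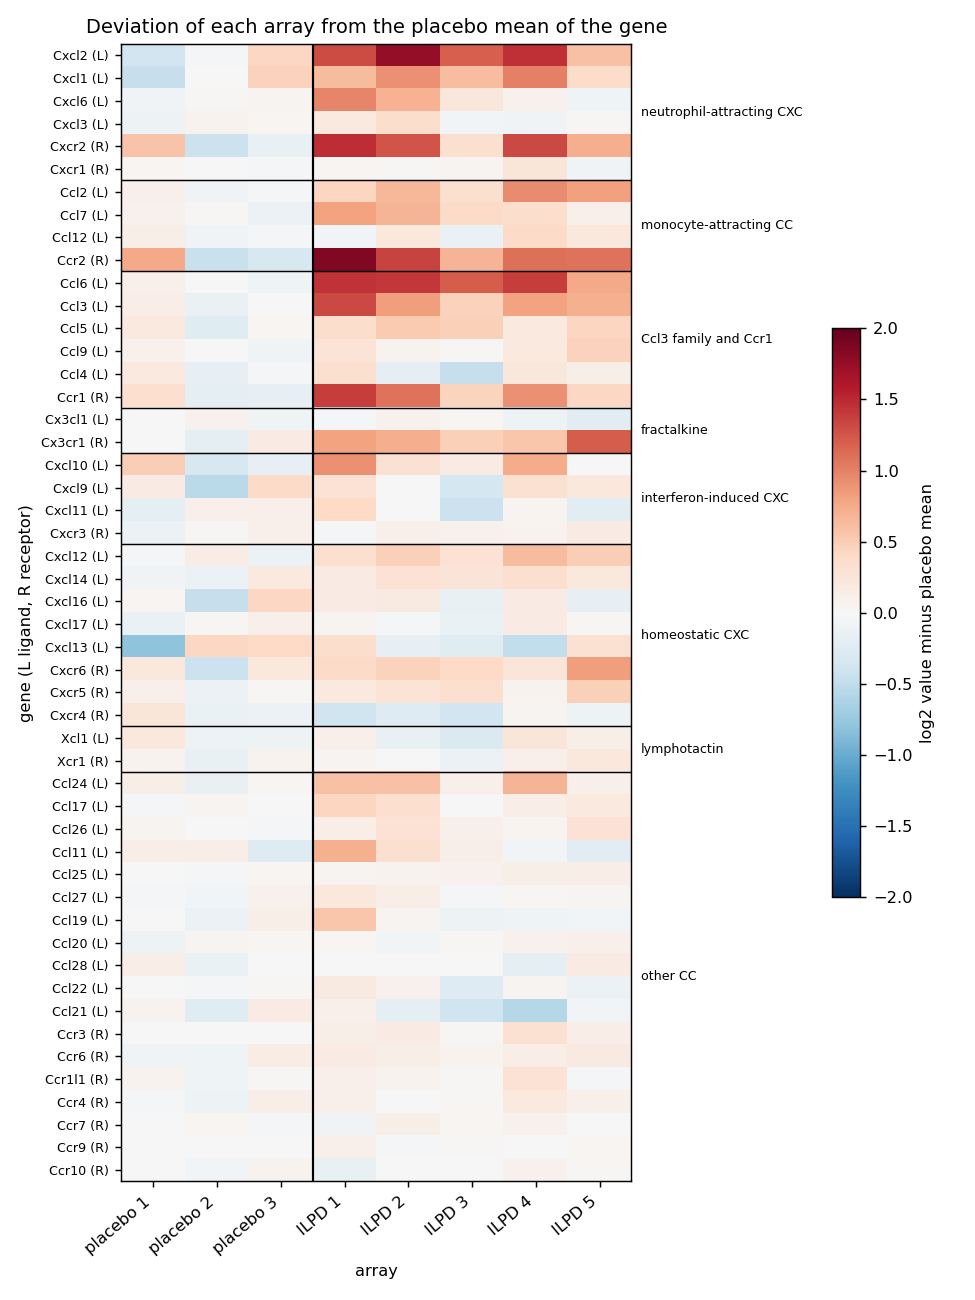
Log2 value of each array minus the placebo mean of the gene (colour, red above and blue below) for all 50 genes (rows; L ligand, R receptor) in 8 groups by known function, with placebo arrays left of the vertical line. Cxcl2, Ccl6, Ccl3, Ccl2, Cxcl12 and Cx3cr1 are red on all 5 ILPD arrays, and ILPD array 3 is the lowest ILPD array for 21 of the 50 genes.

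Arrays differed in how far the chemokine genes as a whole were raised. The median deviation of the 33 ligands from their placebo means was 0.32 on ILPD array 1, 0.21 on array 2, 0.03 on array 3, 0.17 on array 4 and 0.11 on array 5, with 20 to 31 of 33 above the placebo mean. For the 17 receptors it ran from 0.05 on ILPD array 3 to 0.19 on ILPD array 4. ILPD array 3 was the lowest of its group for 21 of the 50 genes and the highest for 0. In placebo, array 2 was the lowest for 13 of 17 receptors and array 1 the highest for 10.

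**Figure D5:**
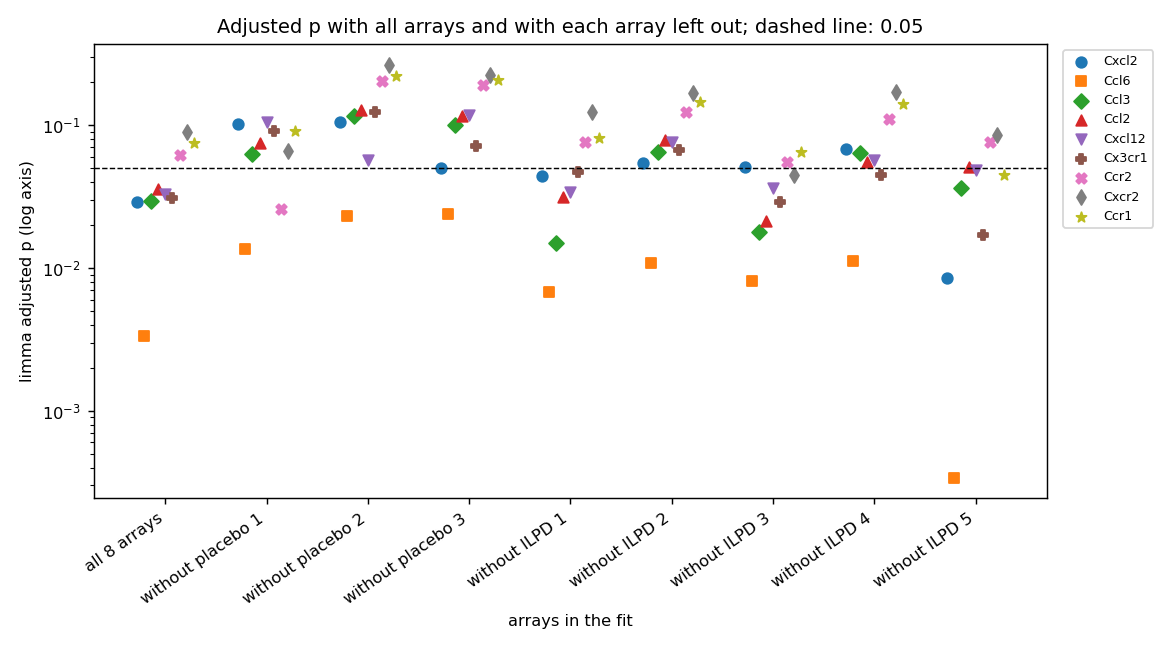
Adjusted p from limma (y axis, log scale; dashed line 0.05) for the 6 called genes and 3 further receptors, with all 8 arrays and with each array left out (x axis). Ccl6 stays below 0.05 in every fit, while the other called genes cross the line without 1 or more of the placebo arrays.

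Genes of the pathway that do not carry a chemokine symbol were read from 5 further lists. Of 116 further pathway genes measured (of 130 listed), 7 rose and 1 fell, that is 6.03% and 0.862%, against 2.29% and 1.17% of the genes with 1 symbol. These lists were drawn up with earlier results of these data known. Among the 10 chemokines with other names and atypical receptors 1 rose (10%). Ackr2, which takes up and degrades inflammatory CC chemokines, rose by 0.37 (SE 0.08, adjusted p = 0.045 by limma; 7.65 ± 0.16 in placebo and 8.01 ± 0.09 in ILPD hearts, SD, n = 3 and 5), and Ackr3 differed by 0.63 without overlap (adjusted p = 0.0608). In the receptor signalling list, 1 of 36 rose (2.78%) and 1 fell, close to the 2.29% and 1.17% of the genes with 1 symbol. Rgs1, which speeds the shutdown of Gi signalling in leukocytes, rose by 0.64 (SE 0.08, adjusted p = 0.00642), and Grk2, a kinase that desensitises chemokine receptors, fell by 0.30 (SE 0.06, adjusted p = 0.0311). Of 31 inducing cytokines and transcription factors 3 rose (9.68%): the IL-1 receptor Il1r1 (0.71, adjusted p = 0.00343), Irf9, a subunit of an interferon-activated factor (0.62, adjusted p = 0.00108), and Nfkbia, the inhibitor that NF-kB itself induces (0.71, adjusted p = 0.0462). Il1a, a cytokine that induces Cxcl1 and Ccl2, differed by 0.75 without passing (adjusted p = 0.083).

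Of 16 proteases and inhibitors 1 rose (6.25%), Mmp9, and Mmp8, the neutrophil collagenase, did not pass (1.32, limma adjusted p = 0.0511). Of 23 genes for chemokine presentation and adhesion 1 rose, or 4.35% against 2.29% of the genes with 1 symbol. It was the junctional adhesion molecule Jam3 (0.24, adjusted p = 0.0308), while the selectin Selp (0.85, adjusted p = 0.196) and the heparan sulfate carrier Sdc4 (0.58, adjusted p = 0.258) did not pass. The calls of Rgs1, Irf9 and Il1r1 held in every alternative fit that contained them. Those of Ackr2, Nfkbia, Jam3 and Grk2 were lost without placebo array 3 (adjusted p = 0.118, 0.0951, 0.0861 and 0.108) and without placebo array 2 (0.144, 0.161, 0.0987 and 0.0744). ILPD array 2 (0.0905, 0.0959, 0.0744 and 0.0603) and ILPD array 3 (0.0849, 0.0907, 0.066 and 0.0639) had the same effect. Placebo array 1 ended the calls of Nfkbia (0.122), Jam3 (0.0981) and Grk2 (0.0906), and ILPD array 4 those of Ackr2 (0.0791), Jam3 (0.0648) and Grk2 (0.068). The calls of Ackr2 (0.0659) and Nfkbia (0.0678) did not hold without ILPD array 1, nor that of Nfkbia without ILPD array 5 (0.0565). The call of Ackr2 was also lost after cyclic loess (0.0718) and quantile normalization (0.0845), and those of Nfkbia (0.0525), Jam3 (0.0855) and Grk2 (0.0596) with the trended robust prior. Leaving out placebo array 2 or ILPD array 2 left 3 pathway genes called higher, leaving out placebo array 3 or ILPD array 4 left 4, and leaving out ILPD array 5 gave 11. Over all 28826 probe sets the calls higher in these fits were, in that order, 116, 247, 171, 332 and 600, against 564 with all arrays.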

How the data were processed

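The samples were 8 Affymetrix arrays of rat left ventricle, 3 placebo and 5 ILPD. The authors deposited 1 log2 value per probe set and array, in a table of 28826 probe sets. R 2.14.2 is named in the submitters' processing notes, and no source used here gives the normalization method. The number of arrays limits the precision, and no detection calls were used. Of the probe sets, 15209 had 1 gene symbol in the platform annotation, 306 several and 13311 none; for each gene the probe set with the highest mean over the 8 arrays was taken.

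The deposited values were fitted over all probe sets (ILPD minus placebo, two-sided) using lmFit and eBayes of limma 3.58.1, under R 4.3.3, with Benjamini-Hochberg adjustment and a threshold of 0.05; the code was tested on simulated data. The members, the gene lists and the tests were chosen with earlier results of these data known. Named were every called member, all members of its role group, the 12 ligands and 6 receptors with the largest absolute differences, and list genes that passed or were among the 2 largest differences of their list; any others were named after their values were seen. The 30 pair tests were added after the values had been seen. The 14 alternative fits were a trended robust prior, quantile and cyclic loess normalization, array weights, a replicate block, leaving out the dimmest 40% of probe sets, and leaving out each array. Promoter sequences are RefSeq's (GRCr8).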

Additional observations from a re-analysis of the deposited data

Results flagged for a closer look

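Among the ILPD arrays, Ccl19, which guides dendritic cells and T cells through Ccr7, was far higher on array 1 (log2 value 8.08) than on the nearest other array (7.57). All 50 genes were examined in this way, and chance alone sets apart about 1 in 20 groups.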

How the results depend on the processing

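The number of ligands called higher was 1 to 5 with an array left out (5 with all), and of receptors 0 to 2 (1 with all). Over all 28826 probe sets the number called higher was 116 to 600 with an array left out (564 with all). Receptors called were 0 after quantile normalization, 2 without the dimmest probe sets and 4 at an adjusted p under 0.1. Of the 116 pathway genes, 7 were called higher with all arrays, 3 to 11 with an array left out, 4 with the trended robust prior, 4 when a 1.5-fold difference was also asked and 18 at an adjusted p under 0.1; 1 was called lower, 0 to 1 with an array left out, 0 with the trended robust prior and 0 at 1.5-fold. The median difference of receptors (0.094) was 0.037 after cyclic loess, 0.032 after quantile normalization and 0.27 without the dimmest probe sets, and 0.082 to 0.141 with an array left out. That of ligands was 0.103 to 0.189 with an array left out. Over all probe sets the median (0.022) was -0.00094 after cyclic loess, -0.013 after quantile normalization and 0.016 without the dimmest. Ligand minus receptor median (0.03) was -0.096 without the dimmest probe sets and -0.0141 to 0.080 with an array left out, being -0.0014 without ILPD array 1. The cause of these shifts was not tested.

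Arrays share replicate numbers 1 to 3 between groups, and the labels do not say whether the numbers pair the samples. Deviations of arrays with the same number correlated at 0.221, -0.0642 and -0.098. These 3 values show no regular pairing but cannot settle the question, so the block was kept as an alternative fit. Replicate numbers 4 and 5 occur only in ILPD, so ILPD arrays 4 and 5 add nothing to a difference in that fit. It rests on replicates 1 to 3 of each group, and calls lost or gained under it cannot be put down to pairing alone. With the replicate block, Cxcl2, Ccl6 and Ccl3 passed, while the calls of Ccl2 (adjusted p = 0.0815), Cxcl12 (0.0596) and Cx3cr1 (0.0556) were lost and Ccl7 (0.0268), Ccr2 (0.0254) and Ccr1 (0.031) gained one (limma), so 2 receptors passed in place of 1. Under the block Ackr2 (0.107), Jam3 (0.141), Grk2 (0.102), Mmp9 (0.108) and Tnnc1 (0.103) also lost theirs, and 0 pathway genes were called lower; it gave differences of -0.11 for Ccl4, 0.026 for Cx3cl1 and -0.031 for Cxcl17. Signs of uncalled genes also turned elsewhere. Ccl4 was -0.062 with array weights, -0.039 after cyclic loess, -0.055 after quantile normalization and -0.084 to 0.117 with an array left out. Cxcl13 was 0.011 with array weights and -0.45 to 0.158 with an array left out, and Cxcl16 -0.19 to 0.248. Cxcl17 was -0.047 after cyclic loess, -0.061 after quantile normalization and -0.045 to 0.073 with an array left out, and Cxcr1 -0.0047 and -0.0092 after those normalizations.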
